A study of Rattus norvegicus with 20 samples.

Results

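The genes described here are 43 regulators of p53 signalling and apoptosis, followed through rat alveolar epithelial cells that were stretched, treated with an inhibitor of the kinase PERK, or both. They were the listed symbols of the p53 pathway, the Bcl2 family, the caspases and the death receptor complexes, and all 43 had an entry among the 17337 genes counted. Of these 43, 35 carried enough counts to be tested, among 8320 genes tested in all. The other 8 (Bid, Pmaip1, Bcl2, Casp6, Casp8, Xiap, Fadd and Rrm2b) were too low.

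p53 is a transcription factor that is activated by DNA damage and other stress, and it raises genes that halt the cell cycle, such as Cdkn1a, and genes that promote cell death, such as Bbc3 and Pmaip1. Mdm2 is a p53 target whose product marks p53 for degradation. Apoptosis through mitochondria is decided within the Bcl2 family, in which BH3-only proteins bind the survival proteins or activate the pore-forming proteins Bax and Bak1. Cytochrome c that leaves the mitochondrion assembles Apaf1 and Casp9 into the apoptosome, and the inhibitor of apoptosis proteins act against caspases and in receptor signalling. Death receptors recruit adaptors such as Tradd and Fadd, with the kinase Ripk1 and the caspase Casp8. PERK is a kinase of the endoplasmic reticulum (ER) that is switched on by unfolded protein, and prolonged signalling through it induces Ddit3, the transcription factor CHOP, which is linked to cell death. Stretch of the alveolar epithelium beyond its normal range is known as a cause of epithelial injury in ventilated lungs.

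Promoter windows are printed for the members whose stretch difference passed the test and which held a motif, together with Aen, which held a motif and did not pass. Each window runs from 250 bases before to 50 bases after the annotated start, is given on the strand of the gene, and comes from RefSeq with the build GRCr8. Capitals mark the match. In Cdkn1a (chr20:7150682-7150981, plus strand), Ccng1 (chr10:25684827-25685126, minus strand), Ei24 (chr8:44699322-44699621, minus strand) and Aen (chr1:142224283-142224582, plus strand) this is a match to the p53 decamer, the single 10-base unit of which a full p53 response element holds a pair. In Perp (chr1:15361534-15361833, plus strand) and Birc2 (chr8:13271491-13271790, minus strand) it is the AP-1 motif TGANTCA.
Cdkn1a: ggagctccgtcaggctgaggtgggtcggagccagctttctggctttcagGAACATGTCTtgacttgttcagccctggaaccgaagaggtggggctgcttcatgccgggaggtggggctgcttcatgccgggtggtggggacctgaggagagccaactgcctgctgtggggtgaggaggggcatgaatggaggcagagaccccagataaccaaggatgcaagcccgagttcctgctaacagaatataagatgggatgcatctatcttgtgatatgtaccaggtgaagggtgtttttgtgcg
Ccng1: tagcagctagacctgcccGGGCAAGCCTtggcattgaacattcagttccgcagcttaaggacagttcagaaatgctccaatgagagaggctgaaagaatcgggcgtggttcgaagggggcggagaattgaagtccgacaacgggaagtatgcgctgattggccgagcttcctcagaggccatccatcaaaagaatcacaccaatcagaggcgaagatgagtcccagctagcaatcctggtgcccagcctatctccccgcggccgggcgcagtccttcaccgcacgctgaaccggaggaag
Ei24: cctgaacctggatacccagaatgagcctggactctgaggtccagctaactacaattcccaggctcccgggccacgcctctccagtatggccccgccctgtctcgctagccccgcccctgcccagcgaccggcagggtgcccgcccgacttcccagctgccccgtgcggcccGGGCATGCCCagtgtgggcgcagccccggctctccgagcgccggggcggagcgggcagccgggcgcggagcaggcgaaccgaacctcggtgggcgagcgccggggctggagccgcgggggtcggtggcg
Aen: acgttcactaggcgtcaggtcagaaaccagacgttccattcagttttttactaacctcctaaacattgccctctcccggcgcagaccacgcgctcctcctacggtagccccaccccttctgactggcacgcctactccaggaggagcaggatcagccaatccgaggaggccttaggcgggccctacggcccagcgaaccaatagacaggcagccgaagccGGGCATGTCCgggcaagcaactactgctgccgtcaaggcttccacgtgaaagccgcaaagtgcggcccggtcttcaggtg
Perp: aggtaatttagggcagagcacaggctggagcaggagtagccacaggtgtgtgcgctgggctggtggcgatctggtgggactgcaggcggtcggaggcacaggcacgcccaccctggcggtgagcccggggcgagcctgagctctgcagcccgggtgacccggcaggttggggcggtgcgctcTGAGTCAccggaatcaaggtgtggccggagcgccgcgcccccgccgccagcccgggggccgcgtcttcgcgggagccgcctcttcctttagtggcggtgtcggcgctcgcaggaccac
Birc2: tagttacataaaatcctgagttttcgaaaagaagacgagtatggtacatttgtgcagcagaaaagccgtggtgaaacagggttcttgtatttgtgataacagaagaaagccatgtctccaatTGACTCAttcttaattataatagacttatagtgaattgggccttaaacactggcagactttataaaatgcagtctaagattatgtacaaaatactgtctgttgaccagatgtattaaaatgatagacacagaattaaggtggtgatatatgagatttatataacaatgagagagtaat
These matches are letters in a window and not measured binding. The p53 decamer was present in 5 of the 32 members with a window (the 4 named and Cflar), and in 7.98% of all 33469 windows. A pair of decamers, both fitting the pattern at every base, was found in 0 of 32 members and in 0.0598% of all windows. Pairs with a mismatch were not searched for, so this count does not show that a full response element is absent. TGANTCA was present in 3 of 32 members (Birc2, Diablo and Perp) and in 7.33% of all windows, and TTGCATCA, a composite motif of CHOP and ATF4, in 0 members and 0.795% of windows. Both strands were searched, and no member held both the decamer and TGANTCA. In Ei24 the decamer lay at positions -79 to -70 from the start, in Aen at -30 to -21, in Cdkn1a at -201 to -192 and in Ccng1 at -232 to -223.

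Primary type II pneumocytes from Sprague-Dawley rats grew for 4 days on silastic membranes coated with fibronectin, and by then had become monolayers of type I-like cells. Stretched cells (S) were held in 0.01% DMSO for 18 h before 6 h of cyclic stretch in both axes (25% more surface area, 15 cycles per min), and unstretched cells (NS) had 0.01% DMSO for 24 h. Stretched cells with inhibitor (S_PI) had 1 µM GSK2606414, a PERK inhibitor also known to inhibit the kinase RIPK1, for 18 h before the same stretch. Unstretched cells with inhibitor (NS_PI) had 1 µM GSK2606414, for 24 h in the treatment protocol and 18 h in the series text, and the DMSO content of the inhibitor groups was not given. No group carried a genetic change, and ages of the rats were not given. Each group held 5 libraries, 1 from each of 5 animals, made by QuantSeq, which counts 1 fragment near the 3′ end of each polyadenylated transcript. Each library pooled RNA from 4 monolayers of 1 animal.

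The libraries held between 999209 and 3131541 gene counts, and 3 counts, taken as the detection floor, equalled 1.07 to 3.05 CPM, the normalised read count used throughout (counts over the TMM-scaled library size). Type I markers summed to 1540 to 7450 CPM in S, 2160 to 8420 in NS, 1490 to 7060 in S_PI and 2260 to 8130 in NS_PI, with none of the 15 at 0 throughout, so markers of the labelled cell type were detected in every library. Of 13 tested, 1 rose and 5 fell in S against NS, and 2 rose and 8 fell in S_PI against NS_PI. Markers of epithelial identity differed by animal. Epithelial markers (Epcam, Cdh1, Krt8, Krt18, Krt19 and Nkx2-1) summed to 3410, 12600, 10100, 4680 and 5140 CPM in S, against 10100, 10200, 10100, 11100 and 10900 CPM in NS, in the order of animals 1 to 5, which is kept throughout. In the presence of inhibitor the sums were 2500, 11100, 9310, 3740 and 5730 CPM in S_PI, against 12500, 11100, 7480, 7930 and 10100 CPM in NS_PI. The stretched sums were thus lower in animals 1, 4 and 5 and about equal or higher in animals 2 and 3. Cdh1 was the largest part of the sum, averaging 4390 CPM in S and 6430 in NS. All 6 markers had a negative fold change in both contrasts, but only 1 fell in S against NS and 3 in S_PI against NS_PI by the test used below. Macrophage and leukocyte markers, of which 5 of 12 rose in S against NS and 7 of 12 in S_PI against NS_PI, summed to 1540 to 4060 CPM in S, 1010 to 3110 in NS, 1710 to 3660 in S_PI and 1050 to 2780 in NS_PI. Fibroblast and smooth muscle markers summed to 4270 to 13000 CPM in S, 4000 to 8640 in NS, 4330 to 14900 in S_PI and 3750 to 11700 in NS_PI. Of 7 tested, 1 rose and 1 fell in S against NS, and 2 rose and 2 fell in S_PI against NS_PI. Col1a1 was the largest part of the sum, averaging 6300 CPM in S and 3940 in NS, while Tagln averaged 468 CPM in S and 935 in NS. Of 8 type II markers tested, 0 rose and 0 fell in either contrast. Endothelial markers reached at most 4.07 CPM, with Cdh5 at 0 in all 20 libraries. The part of these shifts in the results below was not tested, and in RNA from whole monolayers fewer cells of a type and less RNA per cell cannot be told apart.

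**Figure D1:**
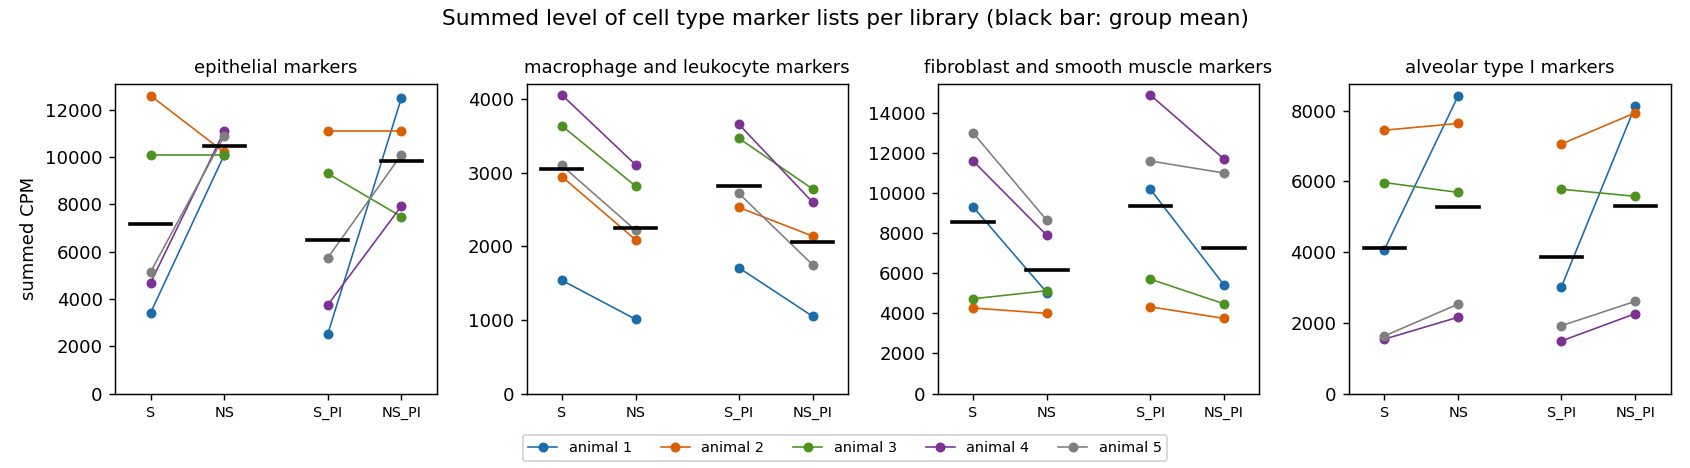
Summed CPM of 4 cell type marker lists (y axis, linear, from 0) in each library by group (x axis), with a line joining the libraries of 1 animal within a stretch pair and a black bar at the group mean. Epithelial sums under stretch lie near 3410 to 5140 CPM in S for animals 1, 4 and 5, against 10100 to 11100 CPM in NS.

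Stretch moved 12 of the 35 tested genes past the threshold without inhibitor (34.3%, where 24.9% of all genes tested passed), 4 upwards and 8 downwards. The 4 that rose in S against NS were Mcl1 (a survival protein), Apaf1 (the core of the apoptosome), Birc2 (an inhibitor of apoptosis protein) and Ripk1 (a death receptor kinase). The 8 that fell were Bik (a BH3-only protein), Bcl2l2 (the survival protein Bcl-w), Casp2 and Casp12 (caspases), Tradd (a death receptor adaptor) and the p53 targets Ccng1, Perp and Ei24. The share among all genes was 12.5% upwards and 12.4% downwards, so that the downward count among these genes (8 of 35) exceeded the upward one (4 of 35) where all genes were evenly split. The median log2 fold change was -0.20 over the 35 genes and -0.01 over all genes. Of the 35, 12 had a positive and 23 a negative fold change, between -1.88 for Bik and 0.87 for Polk. A gene passed at an adjusted p below 0.05 in edgeR's quasi-likelihood test, with the animal as a block and the adjustment of Benjamini and Hochberg over all 8320 genes. DESeq2 also passed 12 of 35, with Mdm2 in place of Casp2.

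With the inhibitor present, stretch again moved 12 of 35 past the threshold (34.3%, where 30.5% of all genes did), 2 upwards and 10 downwards. Mcl1 and Ripk1 rose in S_PI against NS_PI. Cdkn1a, Bak1, Bik, Casp2, Casp12, Tradd, Ccng1, Perp, Aifm2 and Ei24 fell. Among all genes 15.2% passed upwards and 15.3% downwards. The median log2 fold change was -0.29 over the 35 genes and -0.02 over all genes, and DESeq2 passed 11 of 35. The same 9 genes (75% of each list) passed with and without inhibitor, each in the same direction: Mcl1, Ripk1, Bik, Casp2, Casp12, Tradd, Ccng1, Perp and Ei24. Over all genes 1468 passed both times, all in the same direction, which was 70.7% of those called without and 57.9% of those called with inhibitor. These contrasts share no library, though they share the animals. Of the 35, 20 passed in neither.

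The calls leaned on the pairing by animal. Without the animal block, 3 of the 12 calls remained in S against NS (Mcl1, Birc2 and Ei24) and 6 of the 12 in S_PI against NS_PI (Bak1, Mcl1, Tradd, Ripk1, Aifm2 and Ei24). A fit to the S and NS libraries alone gave 5 calls, and leaving animal 3 out of all groups gave 4. Each call was refitted under 13 alternative settings (12 for Bik and Casp12, which a stricter filter removed), and the number it passed is given with it.

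**Figure D2:**
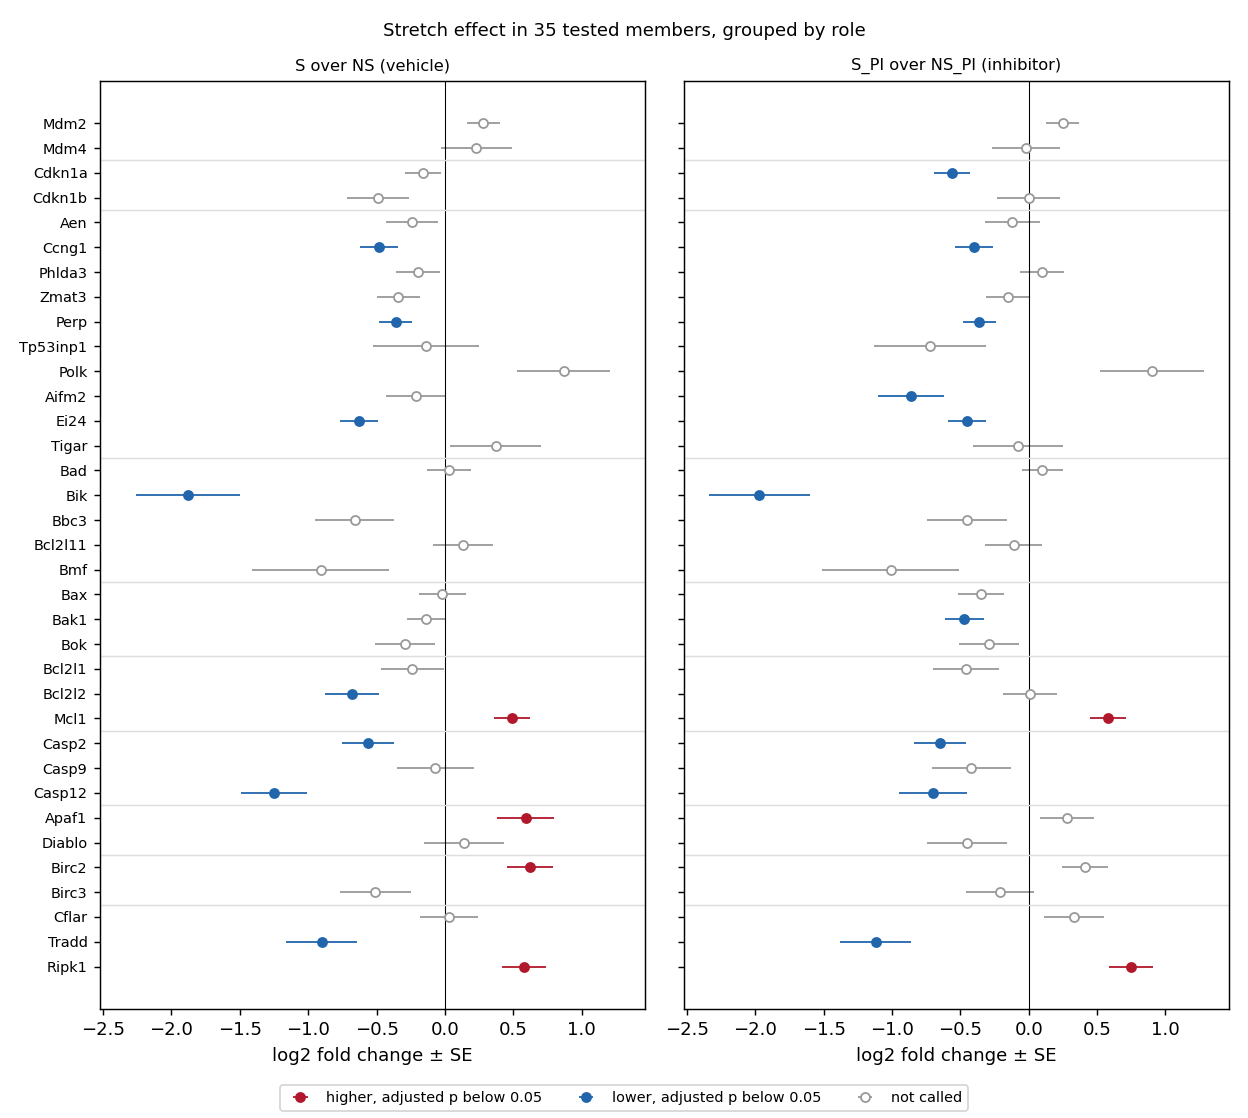
Stretch effect for the 35 tested genes (y axis, grouped by role) as log2 fold change with its standard error (x axis), S over NS in the left panel and S_PI over NS_PI in the right. Filled points passed the threshold, red for higher and blue for lower in stretched cells; 4 red and 8 blue points stand on the left, 2 red and 10 blue on the right.

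Among the regulators of p53 and the cyclin-dependent kinase inhibitors, only Cdkn1a passed a stretch test, and only with inhibitor. Cdkn1a (ENSRNOG00000000521, chromosome 20), which encodes the cell cycle inhibitor p21, measured 86.0, 230, 205, 131 and 166 CPM in S_PI, against 142, 313, 291, 217 and 229 CPM in NS_PI. It was lower in S_PI in each of the 5 animals, although the groups overlapped, since animals differed in level. The log2 fold change was -0.56 ± 0.13 (SE; edgeR adjusted p = 0.00359), which passed 12 of 13 alternatives and missed the threshold without the animal block (adjusted p = 0.212, over a range of 0.000756 to 0.212). Without inhibitor, Cdkn1a measured 84.0, 247, 218, 152 and 176 CPM in S, against 129, 207, 197, 220 and 177 CPM in NS. There it was lower in 3 animals and higher in 2, and the difference of -0.16 ± 0.13 did not pass (edgeR adjusted p = 0.417). Mdm2 (ENSRNOG00000006304, chromosome 7) averaged 174 ± 10.9 CPM in S and 143 ± 18.9 CPM in NS (SD, n = 5 each). It averaged 188 ± 13.9 CPM in S_PI and 158 ± 16.2 CPM in NS_PI. Its fold changes of 0.28 ± 0.12 and 0.25 ± 0.12 did not pass (edgeR adjusted p = 0.0862 without and 0.122 with inhibitor), while DESeq2 passed it without inhibitor (adjusted p = 0.0479, over a range of 0.0479 to 0.313). Mdm4, which restrains p53 together with Mdm2, and Cdkn1b, the cell cycle inhibitor p27, passed in neither contrast.

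Of the 10 tested genes grouped here as p53 targets, 3 fell and none rose in S against NS, where 12.4% of all genes fell. In S_PI against NS_PI 4 fell and none rose, where 15.3% of all genes fell. Mdm2, Cdkn1a, Bbc3 and Pmaip1, which p53 also raises, are counted under other roles, so these counts do not cover every p53 target. Among 25 other p53 targets of the wider pathway, 5 rose and 4 fell in S against NS, and 3 rose and 7 fell in S_PI against NS_PI. Ei24 (ENSRNOG00000030391, chromosome 8), an ER membrane protein induced by p53, measured 49.3, 55.7, 60.6, 78.3 and 65.7 CPM in S, against 97.4, 95.7, 94.3, 92.5 and 93.3 CPM in NS. With inhibitor it measured 79.1, 74.4, 65.9, 80.0 and 58.6 CPM in S_PI, against 123, 93.8, 90.7, 101 and 81.0 CPM in NS_PI. Every stretched library lay below every unstretched one in both contrasts. The log2 fold changes were -0.63 ± 0.14 (edgeR adjusted p = 0.00286) and -0.45 ± 0.14 (edgeR adjusted p = 0.0163). Without inhibitor Ei24 passed under all 13 alternatives, and with inhibitor under 11, missing without animal 3 (adjusted p = 0.0678) or animal 5 (0.0502), over a range of 0.00637 to 0.0678.

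Ccng1 (ENSRNOG00000003256, chromosome 10), the cyclin G1 gene and a long known p53 target, measured 476, 230, 168, 220 and 223 CPM in S, against 619, 473, 216, 296 and 254 CPM in NS. In the inhibitor groups it measured 412, 256, 202, 260 and 192 CPM in S_PI, against 468, 431, 265, 330 and 235 CPM in NS_PI. All 5 animals were lower under stretch in both contrasts, while the groups overlapped. As log2 fold changes the differences were -0.48 ± 0.14 (edgeR adjusted p = 0.0174) and -0.40 ± 0.14 (edgeR adjusted p = 0.0365). The first passed 9 of 13 alternatives and missed without animal 2 (adjusted p = 0.129) or 3 (0.0516), over a range of 0.00869 to 0.352. The second passed 8 and missed without animal 2 (0.128), 3 (0.0955), 4 (0.0824) or 5 (0.0807), over a range of 0.0169 to 0.449.

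Perp (ENSRNOG00000011994, chromosome 1), a p53-induced membrane protein that is also part of desmosomes in epithelia, measured 288, 179, 139, 71.2 and 93.4 CPM in S, against 309, 295, 170, 96.6 and 110 CPM in NS. It measured 242, 188, 145, 70.9 and 100 CPM in S_PI, against 357, 280, 185, 90.1 and 95.1 CPM in NS_PI. It was lower under stretch in 5 of 5 animals without inhibitor and in 4 of 5 with it. The spread between animals was wider than the stretch difference, and the groups overlapped. Both log2 fold changes were -0.36 ± 0.12 (edgeR adjusted p = 0.0363 and 0.0291) and both passed only 6 of 13 alternatives. The call without inhibitor missed without animal 2 (adjusted p = 0.223), 3 (0.109), 4 (0.110) or 5 (0.0726), over a range of 0.0131 to 0.685. The call with inhibitor missed without animal 1 (0.0622), 2 (0.111), 3 (0.0983) or 4 (0.0790), over a range of 0.0111 to 0.570.

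Aifm2 (ENSRNOG00000059445, chromosome 20), an oxidoreductase known as a suppressor of ferroptosis, measured 7.45, 7.93, 8.16, 6.10 and 6.82 CPM in S_PI, against 13.5, 13.8, 9.49, 21.4 and 10.4 CPM in NS_PI. These groups did not overlap. The log2 fold change was -0.86 ± 0.24 (edgeR adjusted p = 0.00840), and it passed 12 of 13 alternatives, missing without animal 4 (adjusted p = 0.0800, over a range of 0.00457 to 0.0800). Without inhibitor it measured 11.1, 8.92, 8.03, 15.2 and 10.9 CPM in S, against 13.4, 8.88, 13, 15.9 and 10.8 CPM in NS, a difference of -0.21 ± 0.22 that did not pass (edgeR adjusted p = 0.530). In RefSeq on GRCr8, Aifm2 overlaps Macroh2a2, and the use of strand in counting was not given, so a share of its reads could come from that gene.

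Of the genes grouped here as p53 targets, Aen (a nuclease), Phlda3 (a repressor of Akt) and Zmat3 (an RNA-binding protein) passed in neither contrast. Nor did Tp53inp1 (a p53 cofactor), Polk (a DNA polymerase of damage bypass) or Tigar (a sugar bisphosphatase). Polk was higher under stretch in 5 of 5 animals in both contrasts, at 8.57 ± 4.66 CPM in S and 4.73 ± 1.65 CPM in NS, and at 6.36 ± 2.69 CPM in S_PI and 3.41 ± 1.45 CPM in NS_PI (SD, n = 5 each). Its fold changes of 0.87 ± 0.34 and 0.90 ± 0.38 missed the threshold (edgeR adjusted p = 0.0666 and 0.0763). The lowest Polk library held 3 counts, the detection floor. The remaining 5 had fold changes between -0.34 (Zmat3) and 0.37 (Tigar) in S over NS and between -0.72 (Tp53inp1) and 0.10 (Phlda3) in S_PI over NS_PI.

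**Figure D3:**
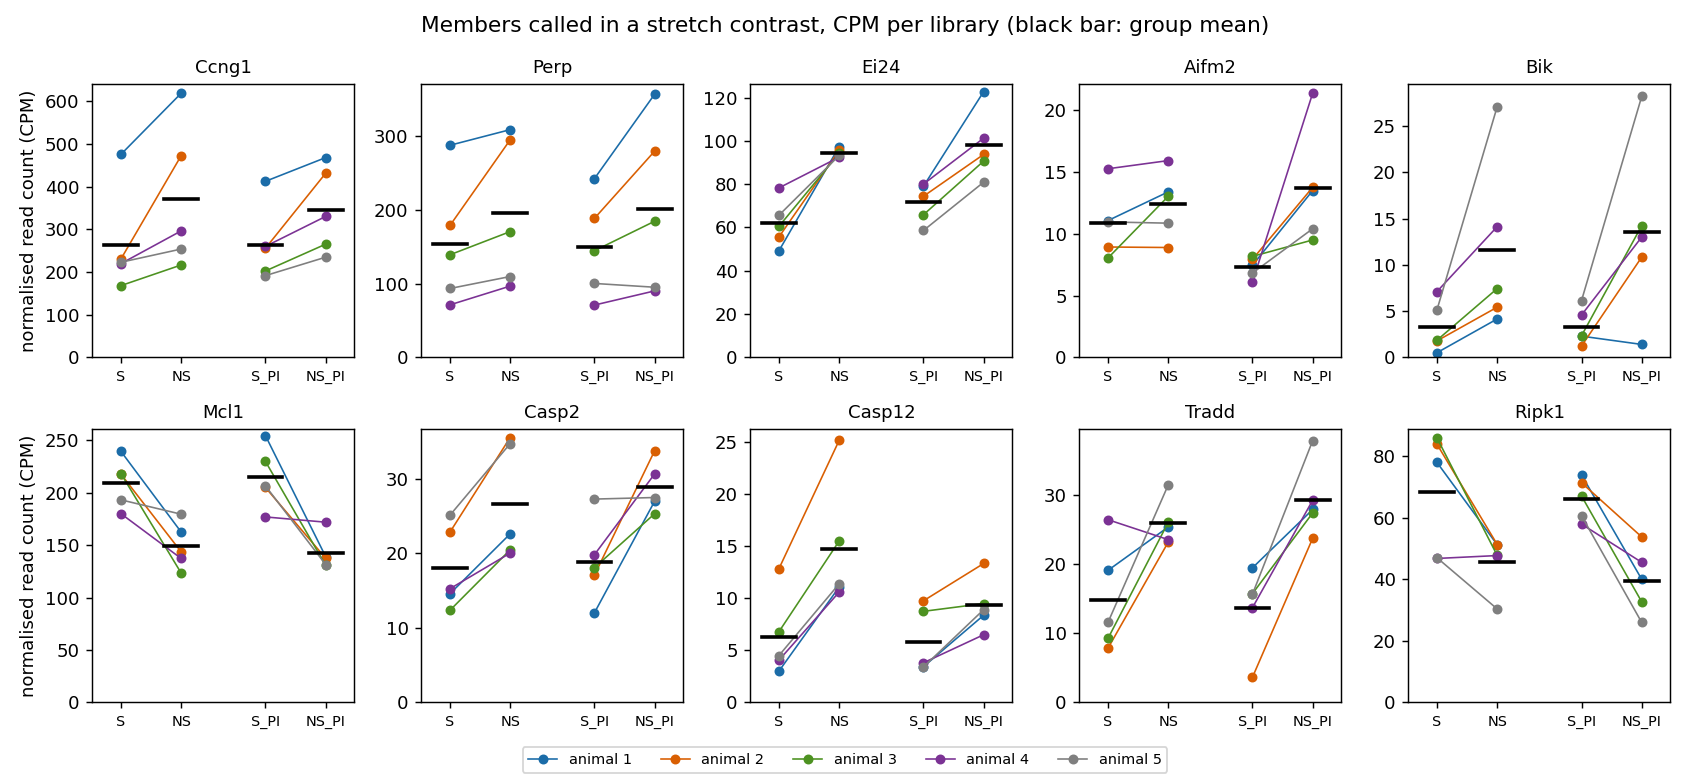
CPM (y axis, linear, from 0, its own range per panel) of the 10 genes with values given for every library, by group (x axis), with a line joining the S and NS or the S_PI and NS_PI libraries of 1 animal and a black bar at the group mean. Ei24 has every stretched library below every unstretched one in both pairs, and Mcl1 every stretched library above.

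Among the 5 tested BH3-only genes, 1 fell and none rose in either contrast. That gene, Bik (ENSRNOG00000010359, chromosome 7), whose product sits mainly at the ER, had the most negative fold change of the 35 in both. It measured 0.503, 1.78, 1.85, 7.12 and 5.15 CPM in S, against 4.15, 5.43, 7.44, 14.1 and 27.1 CPM in NS. With inhibitor it measured 2.29, 1.22, 2.33, 4.57 and 6.13 CPM in S_PI, against 1.40, 10.8, 14.2, 13 and 28.2 CPM in NS_PI. It was lower under stretch in all animals without inhibitor and in all but animal 1 with it. The log2 fold changes were -1.88 ± 0.38 (edgeR adjusted p = 0.00128) and -1.97 ± 0.37 (edgeR adjusted p = 0.000449). Several stretched libraries were within or below the range of the detection floor, so the size of the fold is imprecise. Each call passed 11 of 12 alternatives and missed without the animal block (adjusted p = 0.0762, over a range of 0.000179 to 0.0762, and 0.0514, over a range of 4.01e-05 to 0.0514).

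The tested BH3-only genes most closely tied to p53 and to ER stress did not pass, and Pmaip1 was too low to be tested. Bbc3 (chromosome 1), which encodes PUMA, measured 7.04, 57.8, 51.9, 50.8 and 32.8 CPM in S, against 38.8, 76.0, 74.4, 37.7 and 60.2 CPM in NS, and it was lower under stretch in 4 of 5 animals. With inhibitor it measured 9.17, 84.2, 53.1, 49.5 and 27.3 CPM in S_PI, against 43.3, 64.6, 60.6, 46.9 and 53.5 CPM in NS_PI. The fold changes of -0.66 ± 0.29 and -0.45 ± 0.29 missed the threshold (edgeR adjusted p = 0.102 and 0.246), and the first passed only with no filter on low counts (adjusted p = 0.0486, over a range of 0.0486 to 0.516). Bcl2l11 (ENSRNOG00000016551, chromosome 3), which encodes BIM, averaged 22.0 ± 9.17 CPM in S and 19.1 ± 4.73 CPM in NS, and 23.3 ± 11 CPM in S_PI and 24.7 ± 9.81 CPM in NS_PI (SD, n = 5 each). Its fold changes were 0.13 ± 0.22 and -0.11 ± 0.21, within the spread, and it overlaps Acoxl in RefSeq. Bad, an antagonist of Bcl2l1, was close to level (0.03 ± 0.16 and 0.10 ± 0.15). Bmf had fold changes of -0.91 ± 0.50 and -1.01 ± 0.50 (edgeR adjusted p = 0.186 and 0.126).

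Of the 3 pore-forming genes, none passed in S against NS and 1 fell in S_PI against NS_PI. Bak1 (ENSRNOG00000000485, chromosome 20) measured 45.3, 58.6, 44.3, 51.1 and 45.0 CPM in S_PI, against 66.1, 65.9, 68.0, 66.4 and 72.0 CPM in NS_PI. All S_PI libraries lay below all NS_PI libraries. The log2 fold change was -0.47 ± 0.14 (edgeR adjusted p = 0.0120), passing 11 of 13 alternatives and missing without animal 3 (adjusted p = 0.0693) or 5 (0.0630), over a range of 0.00379 to 0.0693. In S against NS it was -0.14 ± 0.14 (edgeR adjusted p = 0.491), from 55.0 ± 8.06 CPM in S and 60.9 ± 7.38 CPM in NS (SD, n = 5 each).

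Bax (ENSRNOG00000020876, chromosome 1) averaged 31.4 ± 4.77 CPM in S and 32.1 ± 6.91 CPM in NS, a fold change of -0.02 ± 0.17 whose sign turned when animal 1 (0.09) or animal 3 (0.02) was left out. In the inhibitor groups it averaged 31.3 ± 5 CPM in S_PI and 41.0 ± 10.7 CPM in NS_PI (-0.35 ± 0.17, edgeR adjusted p = 0.124), and passed without animal 2 (-0.55, adjusted p = 0.0234) and with library size as the only scaling (-0.45, adjusted p = 0.0480), over a range of 0.0234 to 0.421. Bok had -0.29 ± 0.22 in both contrasts and did not pass.

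Of the 3 tested survival genes of the Bcl2 family, 1 rose and 1 fell in S against NS, and 1 rose in S_PI against NS_PI. Mcl1 (chromosome 2), a short-lived survival protein, measured 239, 218, 218, 180 and 193 CPM in S, against 162, 144, 123, 137 and 179 CPM in NS. With inhibitor it measured 254, 205, 230, 177 and 206 CPM in S_PI, against 139, 138, 131, 172 and 132 CPM in NS_PI. Every animal was higher under stretch in both contrasts, and the groups did not overlap, although the lowest S library (animal 4) and the highest NS library (animal 5) nearly met. In log2 terms the fold changes were 0.49 ± 0.13 (edgeR adjusted p = 0.0109) and 0.58 ± 0.13 (edgeR adjusted p = 0.00268), or 1.41-fold and 1.5-fold. The second passed all 13 alternatives, and the first 11, missing without animal 3 (adjusted p = 0.0604) and in the fit to S and NS alone (0.0587), over a range of 0.00240 to 0.0604.

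Bcl2l2 (ENSRNOG00000015732, chromosome 15) measured 23.1, 21.4, 13, 15.2 and 25.1 CPM in S, against 46.6, 31.6, 31.0, 28.9 and 22.2 CPM in NS, lower in 4 of 5 animals. It measured 33.8, 21.4, 23.3, 22.1 and 22.5 CPM in S_PI, against 41.9, 19.2, 25.8, 20.4 and 16.3 CPM in NS_PI. Its log2 fold change was -0.68 ± 0.20 in S over NS (edgeR adjusted p = 0.0166) and 0.01 ± 0.20 in S_PI over NS_PI (edgeR adjusted p = 0.969). The call passed 8 of 13 alternatives and missed without animal 1 (adjusted p = 0.0693), 3 (0.103) or 4 (0.0645), over a range of 0.00771 to 0.103. Bcl2l1 (ENSRNOG00000007946, chromosome 3), which encodes Bcl-xL, measured 29.7 ± 9.05 CPM in S and 35.8 ± 11.1 CPM in NS, and 24.5 ± 4.97 CPM in S_PI and 33.9 ± 7.75 CPM in NS_PI (SD, n = 5 each). It was lower in 4 of 5 animals in both contrasts, all but animal 1, and did not pass (-0.24 ± 0.23 and -0.46 ± 0.24, edgeR adjusted p = 0.465 and 0.140). Without animal 1 it passed in both (-0.60, adjusted p = 0.0186, over a range of 0.0186 to 0.994, and -0.64, adjusted p = 0.0104, over a range of 0.0104 to 0.366).

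**Figure D4:**
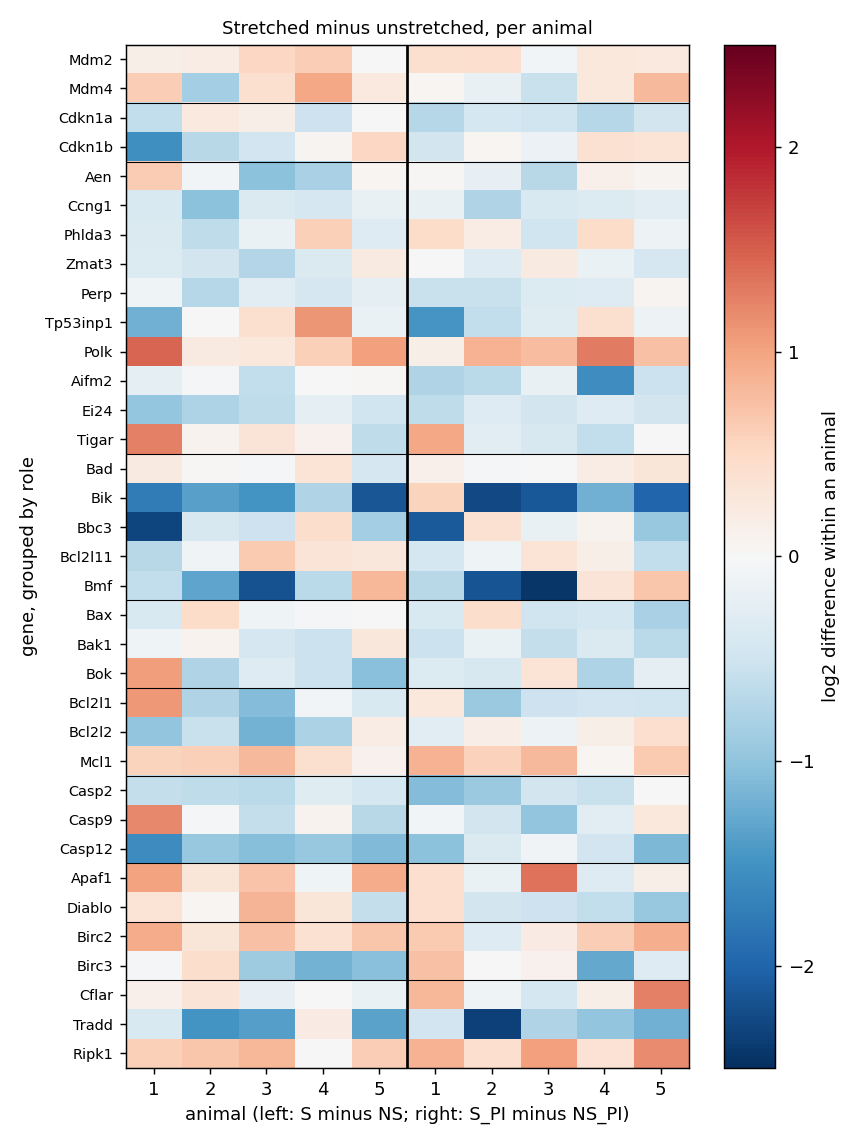
Log2 difference of stretched minus unstretched within each animal (colour, red for higher and blue for lower in stretched cells) for the 35 tested genes (y axis, grouped by role), with S minus NS on the left and S_PI minus NS_PI on the right (x axis, animals 1 to 5). Mcl1 is red and Casp12 and Ei24 are blue in all 10 columns, while Bcl2l1 is red in animal 1 and blue in the others.

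Of the 3 tested caspases, 2 fell in both contrasts. Casp12 (ENSRNOG00000033434, chromosome 8), a caspase associated with the ER in rodents, measured 3.02, 12.8, 6.80, 4.07 and 4.51 CPM in S, against 11.1, 25.2, 15.5, 10.6 and 11.4 CPM in NS. It measured 3.44, 9.76, 8.75, 3.81 and 3.41 CPM in S_PI, against 8.38, 13.3, 9.49, 6.50 and 8.91 CPM in NS_PI. It was lower under stretch in each animal in both contrasts, with groups that overlapped through the high levels of animal 2, and with inhibitor also of animal 3. The log2 fold changes were -1.25 ± 0.24 (edgeR adjusted p = 0.000801), passing 11 of 12 alternatives and missing without the animal block (adjusted p = 0.0629, over a range of 0.000339 to 0.0629), and -0.70 ± 0.25 (edgeR adjusted p = 0.0409), passing 4 of 12. The second missed under DESeq2 (adjusted p = 0.0956) and without animal 1 (0.140), 2 (0.0682), 4 (0.0949) or 5 (0.156), over a range of 0.0197 to 0.299. The lowest Casp12 library held 4 counts, near the detection floor, so the size of the fold is imprecise.

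Casp2 (ENSRNOG00000016707, chromosome 4), an initiator caspase linked to p53 signalling, measured 14.6, 22.8, 12.4, 15.2 and 25.1 CPM in S, against 22.6, 35.5, 20.5, 20.0 and 34.7 CPM in NS. With inhibitor it measured 12.0, 17.1, 18.1, 19.8 and 27.3 CPM in S_PI, against 27.0, 33.8, 25.3, 30.6 and 27.5 CPM in NS_PI. All animals were lower under stretch, by little in animal 5 with inhibitor. As log2 fold changes these were -0.56 ± 0.19 (edgeR adjusted p = 0.0340) and -0.65 ± 0.19 (edgeR adjusted p = 0.0119). The first call was fragile, passing 4 of 13 alternatives and missing under DESeq2 (adjusted p = 0.0518) and without animal 1 (0.0723), 2 (0.104), 3 (0.113), 4 (0.0533) or 5 (0.0707), over a range of 0.0168 to 0.155. The second passed 11 and missed without animal 2 (0.0576, over a range of 0.00627 to 0.0913). Casp9, the initiator caspase of the apoptosome, had -0.07 ± 0.28 and -0.42 ± 0.29 and did not pass.

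Apaf1 (ENSRNOG00000008022, chromosome 7), the scaffold of the apoptosome, measured 44.2, 41.4, 33.4, 31.5 and 46.4 CPM in S, against 21.7, 33.1, 19.9, 34.8 and 23.9 CPM in NS. It was higher in S in 4 of 5 animals, and the groups overlapped through animal 4. The log2 fold change was 0.59 ± 0.21 (edgeR adjusted p = 0.0434), which passed 5 of 13 alternatives. It missed without animal 1 (adjusted p = 0.134), 2 (0.0585), 3 (0.0641) or 5 (0.156) and under upper-quartile (0.0656) or library size scaling (0.0953), over a range of 0.0241 to 0.156. With inhibitor it was 0.28 ± 0.20 (edgeR adjusted p = 0.315), from 39.3 ± 5.68 CPM in S_PI and 33.3 ± 9.82 CPM in NS_PI (SD, n = 5 each). Diablo, whose product is released with cytochrome c and binds inhibitor of apoptosis proteins, had 0.14 ± 0.29 and -0.45 ± 0.29.

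Of the 2 tested inhibitor of apoptosis genes, 1 rose in S against NS and none passed in S_PI against NS_PI. Birc2 (ENSRNOG00000010602, chromosome 8), which encodes cIAP1, measured 64.9, 53.5, 72.9, 50.8 and 51.5 CPM in S, against 33.7, 42.9, 43.4, 39.5 and 31.5 CPM in NS. All S libraries lay above all NS libraries. The log2 fold change was 0.62 ± 0.17 (edgeR adjusted p = 0.0105), or 1.54-fold, and it passed all 13 alternatives. With inhibitor Birc2 measured 61.9, 47.6, 55.4, 61.0 and 72.3 CPM in S_PI, against 39.1, 60.0, 48.0, 39.9 and 37.9 CPM in NS_PI. It was higher in 4 of 5 animals, and the fold change of 0.41 ± 0.17 missed the threshold (edgeR adjusted p = 0.0665), though it passed without animal 2 (0.61, adjusted p = 0.0152, over a range of 0.0152 to 0.280). Birc3, which encodes cIAP2, averaged 28.8 ± 16.6 CPM in S and 42.3 ± 17.5 CPM in NS (SD, n = 5 each), a fold change of -0.51 ± 0.26 that did not pass (edgeR adjusted p = 0.151). With inhibitor its fold change was -0.21 ± 0.25.

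In the death receptor complex, the adaptor and the kinase went in opposite directions. Tradd (ENSRNOG00000015179, chromosome 19), the adaptor of the TNF receptor, measured 19.1, 7.85, 9.27, 26.4 and 11.6 CPM in S, against 25.4, 23.2, 26.1, 23.6 and 31.5 CPM in NS. With inhibitor it measured 19.5, 3.66, 15.8, 13.7 and 15.7 CPM in S_PI, against 27.9, 23.8, 27.4, 29.3 and 37.9 CPM in NS_PI. It was lower in 4 of 5 animals without inhibitor, all but animal 4, and with inhibitor the groups did not overlap. The log2 fold changes were -0.90 ± 0.26 (edgeR adjusted p = 0.0166) and -1.12 ± 0.26 (edgeR adjusted p = 0.00317). The first passed 9 of 13 alternatives and missed without animal 2 (adjusted p = 0.0624), 3 (0.0888) or 5 (0.0951), over a range of 0.00602 to 0.107, and the second passed all 13.

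Ripk1 (ENSRNOG00000017787, chromosome 17), the kinase that branches between survival and death signalling, measured 78.0, 83.9, 85.9, 46.8 and 47.0 CPM in S, against 51.2, 51.3, 47.8, 47.7 and 30.4 CPM in NS. It measured 73.9, 71.4, 67.1, 57.9 and 60.7 CPM in S_PI, against 40.0, 53.8, 32.7, 45.5 and 26.0 CPM in NS_PI. Without inhibitor animal 4 showed no rise, and with inhibitor every S_PI library lay above every NS_PI library. The log2 fold changes were 0.58 ± 0.16 (edgeR adjusted p = 0.0120) and 0.75 ± 0.16 (edgeR adjusted p = 0.00164), or 1.5-fold and 1.69-fold. The first passed 10 of 13 alternatives and missed without animal 3 (adjusted p = 0.0531, over a range of 0.00402 to 0.0881), and the second passed all 13. In RefSeq on GRCr8, Tradd overlaps Phaf1 and Ripk1 overlaps Serpinb6a, so reads at shared positions could belong to either gene. Cflar, a caspase-like inhibitor of Casp8, had 0.03 ± 0.21 and 0.33 ± 0.22 and did not pass, and its gene overlaps Casp8.

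The 8 genes left out of the test were near or under the detection floor. Over all 20 libraries, Casp6 was counted 0 times, Fadd 2 times, Bid 10 times and Bcl2 10 times. Pmaip1, which encodes NOXA, had 43 counts, Rrm2b 45, Casp8 64 and Xiap 69. Pmaip1 averaged 1.11 ± 1.09 CPM in S and 1.75 ± 1.74 CPM in NS, and 1.13 ± 0.459 CPM in S_PI and 1.06 ± 0.629 CPM in NS_PI. Casp8, the initiator caspase of death receptors, averaged 1.47 ± 1.14 CPM in S and 1.89 ± 1.62 CPM in NS, and 1.35 ± 0.930 CPM in S_PI and 2.31 ± 1.31 CPM in NS_PI (SD, n = 5 each). A difference between groups in these genes was not detectable at this depth, and a level up to 3 counts, or 1.07 to 3.05 CPM depending on the library, cannot be told from 0. A count near 0 also depends on whether the annotated 3′ end matches the one in use, which was not tested. Of all 43 genes, 15 overlap another annotated gene in RefSeq on GRCr8, including, among those that passed a test, Ripk1, Tradd and Aifm2 with coding genes and Bak1 and Casp2 with noncoding ones.

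The wider pathway, 89 further genes of which 81 were in the table and 68 tested, changed in both directions. In S against NS 17 rose and 8 fell (36.8%), and in S_PI against NS_PI 16 rose and 11 fell (39.7%), where 24.9% and 30.5% of all genes passed, about evenly up and down. Klf4, a transcription factor listed among p53 targets, had the largest rise in both, averaging 79.4 ± 80.2 CPM in S and 11.4 ± 6.93 CPM in NS (SD, n = 5 each; log2 fold change 2.60 ± 0.26, edgeR adjusted p = 1.19e-06) and reaching 2.81 ± 0.27 with inhibitor. Ppm1d, the phosphatase WIP1 that dephosphorylates p53, averaged 41.1 ± 9.06 CPM in S and 19.5 ± 1.81 CPM in NS (1.06 ± 0.16), and 40.2 ± 8.49 CPM in S_PI and 19.7 ± 6.22 CPM in NS_PI (1.05 ± 0.16). Ier3, an early response gene, rose by 1.22 ± 0.22 and 1.38 ± 0.22, and Plk3, a stress-activated kinase, by 0.94 ± 0.20 and 1.21 ± 0.20. Traf2, a partner of Tradd and Ripk1, rose by 1.08 ± 0.25 without inhibitor and had 0.29 ± 0.24 with it, which did not pass (edgeR adjusted p = 0.383). Ddit3 was among the largest rises with inhibitor, averaging 137 ± 40.5 CPM in S_PI and 71.1 ± 17.0 CPM in NS_PI (0.94 ± 0.14, edgeR adjusted p = 7.79e-05). For 0 of the 68 genes did the stretch effects with and without inhibitor differ past the threshold. No change named here is thus shown to be particular to 1 contrast.

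Among the largest decreases of the wider pathway in S against NS were those of Bcl3, an NF-kappaB regulator (-1.87 ± 0.24), Casp4, an inflammatory caspase (-1 ± 0.34), Fas, a death receptor (-0.99 ± 0.27), and Sesn1, a stress-induced p53 target (-0.81 ± 0.21). Fas averaged 11.8 ± 12.4 CPM in S and 20.7 ± 8.09 CPM in NS, and 9.25 ± 6.80 CPM in S_PI and 24.8 ± 12.2 CPM in NS_PI (SD, n = 5 each), lower in all 5 animals both times. In S_PI against NS_PI the large decreases included those of Bcl2l14 (-2.71 ± 0.41, with S_PI at 0.893 ± 0.346 CPM, below the floor range), Fas (-1.47 ± 0.28), Bcl3 (-1.07 ± 0.23) and Dram1, a lysosomal p53 target (-0.80 ± 0.23). With inhibitor Casp4 had -0.10 ± 0.37 (edgeR adjusted p = 0.858). In S against NS, Casp4 missed the threshold without animal 2 (adjusted p = 0.263), 3 (0.0934) or 4 (0.0547), over a range of 0.0101 to 0.263. Fas missed without animal 2 (0.0661) or 3 (0.0609), over a range of 0.00172 to 0.365. Sesn1 missed without animal 2 (0.0523), over a range of 0.00345 to 0.0523. Without the animal block, Traf2, Plk3, Casp4 and Fas missed the threshold in S against NS (adjusted p 0.0799 to 0.365), and Fas, Bcl3 and Dram1 in S_PI against NS_PI (0.0800 to 0.162).

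The inhibitor by itself moved none of the 35 genes past the threshold. In NS_PI against NS, 0 of 35 passed in edgeR (0.0% of all genes did) and 0 in DESeq2, and 2 had an unadjusted p below 0.05. In S_PI against S, 0 of 35 passed in edgeR (0.0% of all genes) and 0 in DESeq2, with 3 at an unadjusted p below 0.05. The fold changes lay between -0.64 and 0.33 in NS_PI over NS and between -0.51 and 0.50 in S_PI over S, with a median SE of 0.21 and 0.22. The 2 genes in unstretched cells were Casp12, at 9.32 ± 2.51 CPM in NS_PI and 14.7 ± 6.14 CPM in NS (-0.64 ± 0.22, lower in 5 of 5 animals, edgeR adjusted p = 0.810), and Cdkn1a, at 238 ± 67.5 CPM in NS_PI and 186 ± 35.8 CPM in NS (0.31 ± 0.13, higher in 4 of 5, edgeR adjusted p = 0.878). The 3 in stretched cells were Cdkn1b, at 22.6 ± 4.60 CPM in S_PI and 16.1 ± 4.84 CPM in S (0.50 ± 0.24), Zmat3, at 52.9 ± 4.01 CPM in S_PI and 41.0 ± 7.83 CPM in S (0.37 ± 0.16), and Aifm2, at 7.29 ± 0.843 CPM in S_PI and 10.8 ± 2.79 CPM in S (-0.51 ± 0.25), each with an edgeR adjusted p of 0.999. All means are with SD over 5 animals.

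Nor was a difference between the stretch effects with and without inhibitor detected for any of the 35. The interaction (the S_PI over NS_PI fold change less the S over NS one) passed in 0 of 35 genes in edgeR (0.0% of all genes) and in 0 in DESeq2, with 2 at an unadjusted p below 0.05. Bcl2l2 had the largest interaction, 0.69 ± 0.28 (95% interval 0.11 to 1.27, edgeR adjusted p = 0.984), and Cdkn1a had -0.41 ± 0.19 (95% interval -0.80 to -0.01, edgeR adjusted p = 0.984). Aifm2 had -0.66 ± 0.33 and Casp12 0.55 ± 0.35. The 6 genes that passed in 1 stretch contrast and not in the other (Apaf1, Birc2, Bcl2l2, Cdkn1a, Bak1 and Aifm2) are thus not shown to respond differently. For Mcl1 the interaction was 0.09 (95% interval -0.30 to 0.49), for Ei24 0.17 (-0.23 to 0.58), for Ripk1 0.17 (-0.30 to 0.65) and for Tradd -0.22 (-1 to 0.56), so a moderate difference in either direction lies within these intervals.

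**Figure D5:**
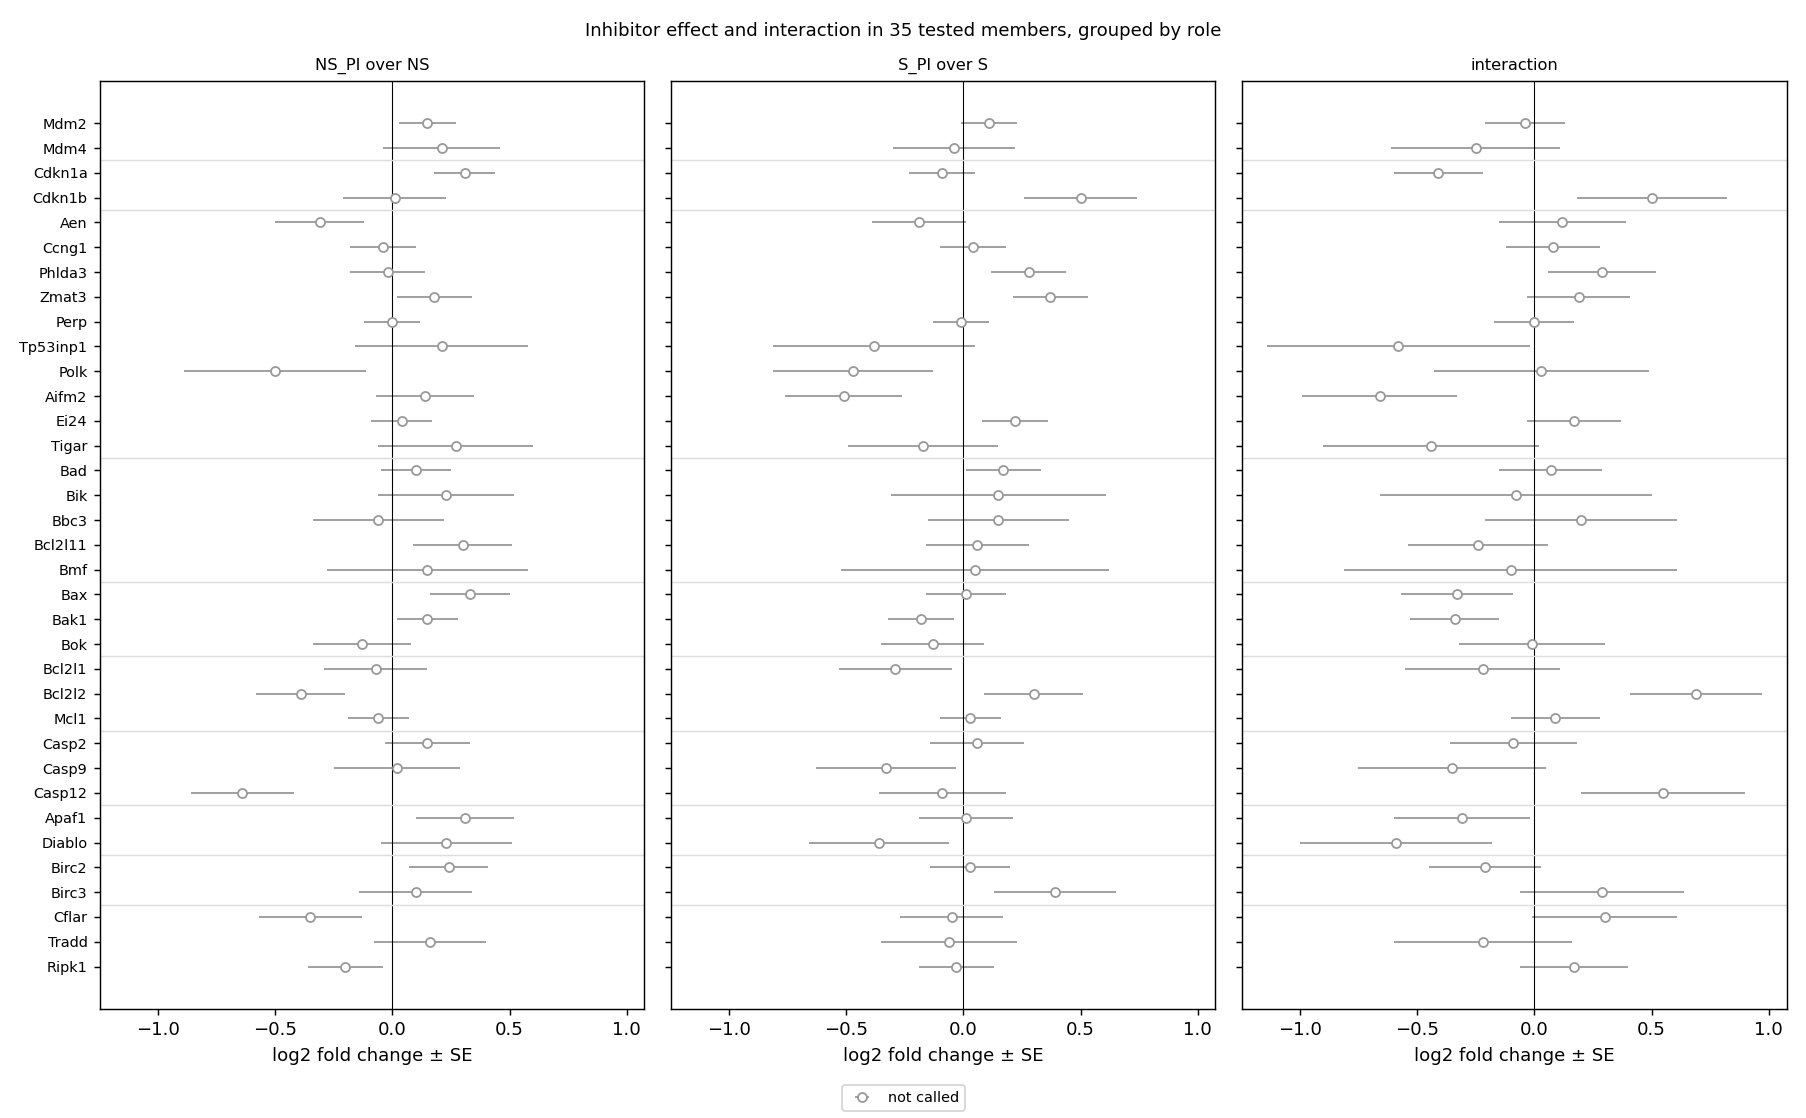
Log2 fold change with its standard error (x axis) for the 35 tested genes (y axis, grouped by role): NS_PI over NS, S_PI over S, and the interaction (S_PI over NS_PI minus S over NS). No point passed the threshold, and the interaction ran from -0.66 for Aifm2 to 0.69 for Bcl2l2.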

How the data were processed

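Per the submitters' processing notes, the tools were STAR and HTSeq, the build was rn6, and no version is given. The authors deposited raw counts per gene symbol for the 20 libraries, which were used as they are. The authors' deposited DESeq2 table holds per gene a mean of normalised counts (a signal), a log2 fold change, a Wald score and a p-value, and its header names neither groups nor direction. It supported no test here, and in it 4 of the members (Bik, Casp12, Ei24 and Birc2) had an adjusted p below 0.05, all with a sign opposite to S over NS here.

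Entries that name no gene were left out: records outside genes made up 16.2 to 24.5% and multi-mapped records 35.5 to 57.7% of each library. Genes were filtered with filterByExpr of edgeR 4.0.16 (minimum count 10) in R 4.3.3, scaled by TMM and tested with the quasi-likelihood F test in 1 fit to all 20 libraries, with group and animal as terms and 12 residual degrees of freedom. P-values were adjusted by the method of Benjamini and Hochberg over 8320 genes. CPM used the TMM factors. The SE is the fold change over the root of F. Animals whose response to stretch differed had no term of their own. Libraries of 1 animal deviated together (median correlation 0.476, against -0.187 between animals, and each of the 20 was closest to a library of its own animal), and the extraction protocol ties each pool to 1 animal. The labels name no sequencing batch or molecular identifiers, so floors cover counting error only.

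Alternatives were other scalings, other filters, DESeq2 1.42.0, no animal block, only the compared groups, and each animal left out. Members named are those that passed in any contrast plus Mdm2, Cdkn1a, Bax, Bbc3, Pmaip1, Bcl2, Bcl2l1, Mcl1, Bcl2l11, Casp8 and Casp12. For the wider pathway up to 5 genes per direction and contrast are named by size of fold change, except for results that are not reported here. Members, lists and rules were chosen with earlier results of these data known, and the wider list is no independent support. Scripts were tested on simulated data. Protein sequences were not used here.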

Additional observations from a re-analysis of the deposited data

Results flagged for a closer look

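In groups of 5 libraries, 4 values lay apart from the rest of their group by more than Dixon's critical value of 0.710. There were 60 groups tested (15 genes that passed a stretch test, in 4 groups each), and chance marks about 1 in 20. Bcl2l2 was at 33.8 CPM in the S_PI library of animal 1, against 21.4 to 23.3 CPM in the other S_PI libraries, and animal 1 was also highest for Bcl2l2 in NS_PI and NS. Mcl1 was at 172 CPM in the NS_PI library of animal 4, against 131 to 139 CPM in the others. The stretch difference of that animal was the smallest in the contrast with inhibitor, and its S_PI library was also the lowest, at 177 CPM. Ripk1 was at 30.4 CPM in the NS library of animal 5, against 47.7 to 51.3 CPM in the others. Ccng1 was at 476 CPM in the S library of animal 1, against 168 to 230 CPM in the others, and animal 1 was highest for Ccng1 in all groups.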

How the results depend on the processing

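The 35 tested genes gave 12 calls in S against NS, and 10 to 12 under the 3 other scalings, both filters and DESeq2, but 3 without the replicate block, 5 with only the compared groups, and 4 to 11 with 1 animal left out. Over all genes the 2075 calls became 818 without the block and 1048 with only the compared groups. In S_PI against NS_PI the 12 calls became 6, and the 2534 calls over all genes 1229, without the block. In NS_PI against NS no member passed under any alternative, while over all genes 4 passed with no low-count filter, 5 with DESeq2, 27 with only the compared groups, 31 with a replicate block per animal and stretch state, and 0 to 3 with 1 animal left out. S_PI against S and the interaction had no call under any alternative. The cause of these differences was not tested.

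Scaling by library size alone shifted the median of all genes to -0.12, and the split over all genes was 722 up and 1425 down in S against NS and 957 up and 1677 down in S_PI against NS_PI. The members then split 3 up and 9 down, and 2 up and 11 down. Upper-quartile scaling gave 854 up and 1233 down, and 1030 up and 1612 down, and the stricter filter 1032 up and 838 down in S against NS.

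Among the single genes named, directions turned only for Bax, Bcl2l11 and Bcl2l2, each near 0 in the contrast concerned. Bax in S over NS was 0.09 without animal 1 and 0.02 without animal 3 (-0.13 to 0.09 with each animal left out). Bcl2l11 was -0.02 in S over NS without animal 3 (range -0.02 to 0.31) and 0.02 in S_PI over NS_PI without animal 5 (range -0.22 to 0.02). Bcl2l2 in S_PI over NS_PI was -0.06 with upper-quartile scaling, -0.09 with library size only, -0.01 with no low-count filter or no block, and -0.06 to 0.11 with each animal left out. Of 799 single results under alternatives, 681 kept direction and side of the threshold. The 799 include results not called in the main fit, which count as kept when they stay uncalled. Calls of members passed from 4 of 13 alternatives (Casp2 in S against NS) to all 13 (such as Birc2 in S against NS). Depth limits the 8 untested genes and Bik. It also limits Bmf, Tp53inp1, Polk, Tigar and Casp12, whose lowest libraries held 2 to 4 counts.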
